A study of Mus musculus with 16 samples.

Results

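Gene expression was compared between 2 mouse livers labelled as lacking both Arid1a and Arid1b and 2 wild-type (WT) livers, all taken 9 days after an injection of tamoxifen. These 4 libraries are part of a series of 16 from mouse liver and liver tumours. The livers labelled Arid1a/b double knockout (DKO) and WT both came from mice given DMSO, and so did 2 livers labelled Arid1a KO, taken at the same 9 days, which are set beside them. WT livers given DMSO and taken at 30 days served as a second set of controls. Of 55291 genes in the deposited count table, 17831 passed a filter on low counts in the 14 liver libraries and were tested, and all of these are covered here. The labels do not state the promoter or cell type that drives the deletion, the alleles, or the age of the mice. They give hepatocytes as the cell type although whole tissue was extracted. All WT libraries carry ALB in their names in the count table. What ALB stands for is not stated. The groups are called DKO, Arid1a KO and WT as labelled. The series calls the replicates biological and says no more about the animals. The p-values rest on a spread between replicate livers that was estimated over all 14 liver libraries in 7 groups. Besides those named, these groups are Arid1a KO livers of 30 days given DMSO, and WT and Arid1a KO livers labelled TC, a nuclear receptor agonist.

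Arid1a and Arid1b encode alternative large subunits of the canonical BAF (mammalian SWI/SNF) complex, which uses ATP to slide or evict nucleosomes at enhancers and promoters. A complex holds one or the other, so cells without either have no complete canonical BAF. In hepatocytes, the main parenchymal cells of the liver, enhancers bound by factors such as HNF4A and the nuclear receptors keep a large set of genes for plasma proteins, drug metabolism and intermediary metabolism at high levels.

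The 2 DKO libraries held 32.0 and 47.8 M counts, the WT libraries 13.5 and 30.8 M, and the Arid1a KO libraries 14.6 and 25.7 M. Levels are given as CPM, a library's counts for a gene over its total, scaled by TMM, a method that sets the bulk of genes equal between libraries, always for replicate 1 and then replicate 2. Differences are on the log2 scale with their standard error (SE). The p-values come from edgeR's quasi-likelihood test and were adjusted by Benjamini-Hochberg over all 17831 genes, and those under 0.05 count as calls. Over log2 CPM the 2 DKO livers correlated at 0.973 with each other and at 0.872 to 0.911 with the WT livers, and the 2 WT livers at 0.974. Transcripts of the Y chromosome were present and Xist was under 1 CPM in all 14 livers, so the groups did not differ in that respect. Whole-gene reads of Arid1a were at 71.4 and 76.2 CPM in WT against 90 and 102 CPM in DKO (log2 0.38, SE 0.18, edgeR adjusted p = 0.15), which does not check the genotype, since the sources used here do not give the exons that were removed. Arid1b stood at 37.6 and 52.3 CPM in WT against 24.3 and 25.4 CPM in DKO (log2 -0.85, SE 0.28, edgeR adjusted p = 0.0439), and this call was lost with any 1 of the 4 libraries left out (edgeR adjusted p = 0.0608 to 0.238) and under total-count scaling (edgeR adjusted p = 0.232). The hepatocyte marker genes were abundant in every liver, with a summed level of 65470 and 37317 CPM in WT against 29807 and 29035 CPM in DKO, and 6 of 12 were called lower (3 without WT replicate 1). In bulk tissue, fewer cells of a type and less RNA per cell cannot be told apart.

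Of the genes tested, 2246 (12.6%) were higher and 2464 (13.8%) lower in DKO than in WT. Counts of called genes in the lists below are to be read beside these shares. Some genes are members of several lists, so the lists are not separate observations. The median log2 fold change of all genes was 0.01. Both DKO libraries lay above both WT libraries in 33.7% of all genes tested and below both in 32.7%. Separation of the 4 libraries, where mentioned below, is therefore common and describes the values only. Among the called genes, 914 were more than 4-fold higher and 991 more than 4-fold lower, and beyond 16-fold the counts were 189 and 347. The lower genes held 45.0% and 41.8% of all counts in the WT livers and 19.3% and 18.9% in the DKO livers. The higher genes held 3.69% and 4.53% of counts in WT and 15.2% and 14.4% in DKO. The direction went with how strongly a gene was expressed in the 30-day WT livers, which took no part in the contrast. Of 134 genes above 1000 CPM in those livers, 92 were lower in DKO and 1 was higher. Of 1913 genes between 100 and 1000 CPM, 39.7% were lower and 3.97% higher. Of 4464 genes between 1 and 10 CPM, 10.4% were lower and 18.0% higher. The share of genes called lower was thus largest among the most abundant transcripts of normal liver, where the share called higher was smallest. By number, the largest group of lower genes, 941, lay between 10 and 100 CPM. Scaled by total counts alone, 4890 genes were higher and 1518 lower, so that 76.3% of calls were increases in place of 47.7%, and the median of all genes moved by 0.42 on the log2 scale. With each library left out in turn, 558 to 1612 genes were higher and 1297 to 1770 lower, with 558 and 1297 without WT replicate 1, 1227 higher without WT replicate 2, and 1221 and 1494 without DKO replicate 1. Tested against a 2-fold change rather than no change, 484 genes were higher and 825 lower. Genes named below as higher or lower than WT kept that call with any 1 of the 4 libraries left out unless stated.

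**Figure D1:**
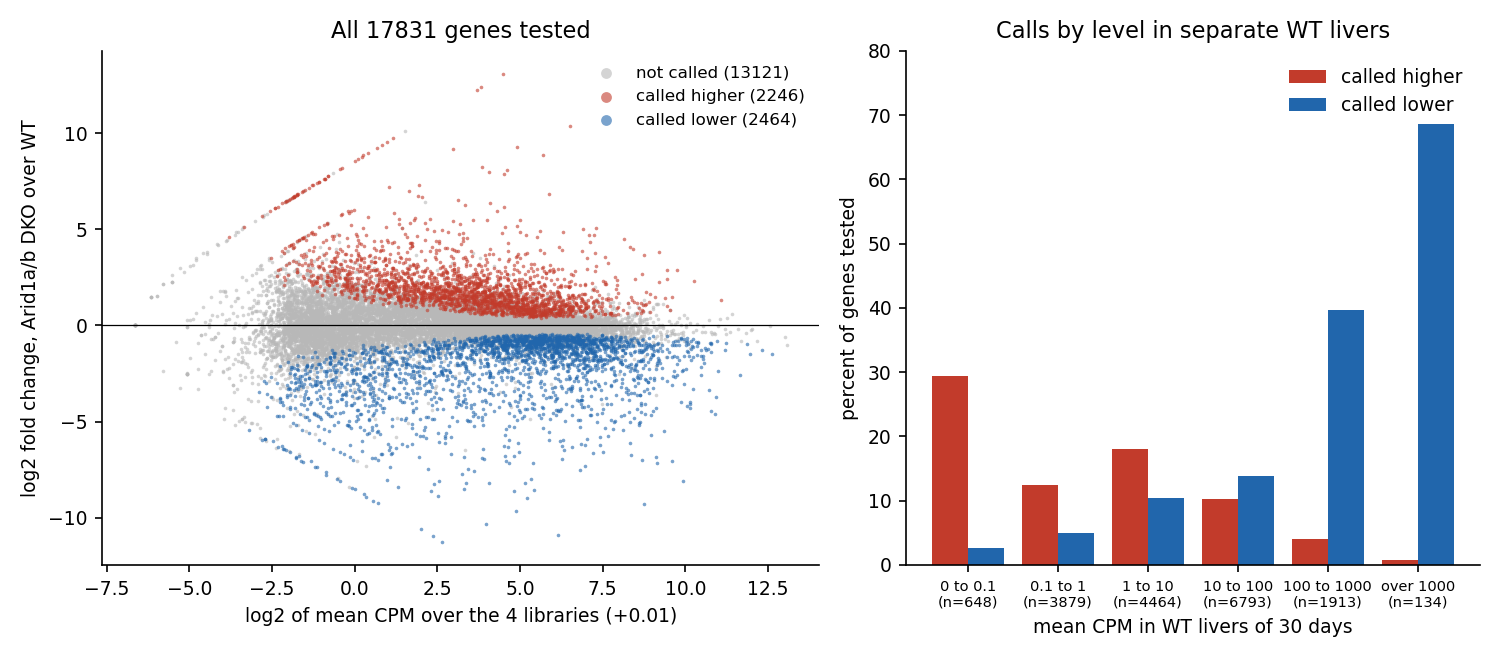
Left, log2 fold change of DKO against WT for each of the 17831 genes tested, with called genes coloured. The horizontal axis is the log2 of the mean CPM over the 4 libraries compared, so it is not independent of the fold change. Right, the percentage of genes called higher or lower in bins of the level in the 30-day WT livers. Bars for lower genes climb from 4.92% at 0.1 to 1 CPM to 68.7% in the highest bin, and bars for higher genes stand at 12.4%, 18.0%, 10.2%, 3.97% and 0.746% over the same bins. Genes below 0.1 CPM in those livers passed the low-count filter through other libraries, so nothing is read from their bars (29.3% higher and 2.62% lower).

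One group of lower genes encodes proteins that the liver secretes into plasma. Of 22 coagulation factors and their regulators tested, 11 were lower and 1 higher, with a median log2 of -0.69, and of 21 complement components 14 were lower and none higher, with a median of -1.43. Klkb1, which encodes plasma prekallikrein of the contact pathway, stood at 277 and 263 CPM in WT against 12.8 and 13.3 CPM in DKO (log2 -4.37, SE 0.23, edgeR adjusted p = 4.57e-06). F11, coagulation factor XI, which acts in the same pathway, stood at 124 and 125 CPM in WT against 11.6 and 4.65 CPM in DKO (log2 -3.94, SE 0.41, edgeR adjusted p = 1.40e-04). The groups were far apart for both genes. F5, the cofactor of factor Xa, stood at 885 and 949 CPM in WT against 212 and 169.8 CPM in DKO (log2 -2.27, SE 0.21, edgeR adjusted p = 8.84e-05). Proz, the vitamin K-dependent protein Z, stood at 739 and 666 CPM in WT against 185 and 156 CPM in DKO (log2 -2.04, SE 0.20, edgeR adjusted p = 1.21e-04). In contrast, Kng1, which encodes kininogen, the substrate of plasma kallikrein, stood at 2099.7 and 2207 CPM in WT against 2838 and 2724 CPM in DKO and was not called (log2 0.37, SE 0.20, edgeR adjusted p = 0.193). Loss was therefore uneven within the contact pathway. Among complement genes, C8g, a chain of the membrane attack complex, stood at 538 and 539 CPM in WT against 35.7 and 62.4 CPM in DKO (log2 -3.45, SE 0.29, edgeR adjusted p = 4.68e-05). C4bp, an inhibitor of the classical pathway, stood at 802 and 653 CPM in WT against 76.6 and 40.5 CPM in DKO (log2 -3.64, SE 0.32, edgeR adjusted p = 5.60e-05). The mannose-binding lectins, which start the lectin pathway, fell as well, Mbl1 with a log2 of -3.68 and Mbl2 with a log2 of -2.83. C3, the central component, stood at 9829 and 10180.0 CPM in WT against 7307 and 5809 CPM in DKO and was not called (log2 -0.61, SE 0.28, edgeR adjusted p = 0.126).

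Among 33 plasma carrier proteins and apolipoproteins, 18 were lower and 1 higher, with a median log2 of -1.01. Hrg, a heparin-binding plasma glycoprotein, stood at 1021 and 899 CPM in WT against 266 and 239 CPM in DKO (log2 -1.93, SE 0.19, edgeR adjusted p = 1.27e-04). Fetub, an inhibitor of secreted metalloproteinases, stood at 620.1 and 769 CPM in WT against 94.3 and 112 CPM in DKO (log2 -2.75, SE 0.28, edgeR adjusted p = 1.39e-04). The DKO livers lay within a narrow range below both WT livers for each. Vtn, the adhesive plasma protein vitronectin, fell by 1.57 on the log2 scale and Apoc4, a small apolipoprotein, by 2.07. Mug1, Trf, Apoa4 and Clu, given next, also encode secreted proteins but are not members of this list. Mug1, a protease inhibitor of the alpha-2-macroglobulin family with close copies that can share its reads, fell by 4.44 on the log2 scale. Trf, which encodes the iron carrier transferrin, stood at 10875 and 7756 CPM in WT against 3248 and 3347 CPM in DKO (log2 -1.50, SE 0.30, edgeR adjusted p = 0.00518). Apoa4, an apolipoprotein of lipid export, went the other way, at 179 and 229 CPM in WT against 1444 and 1598 CPM in DKO (log2 2.90, SE 0.25, edgeR adjusted p = 5.60e-05). Clu, the secreted chaperone clusterin, stood at 1278 and 1212 CPM in WT against 2949.5 and 3206 CPM in DKO (log2 1.31, SE 0.23, edgeR adjusted p = 0.00257), so the loss did not extend to all secreted proteins. Without WT replicate 1 the number of lower plasma carrier genes was 9.

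Genes of drug metabolism and transport formed another group. Cytochromes P450 add oxygen to drugs, fatty acids and steroids. Of 32 genes of this list 21 were lower and 2 higher, with a median log2 of -2.89. Cyp4v3, a fatty acid hydroxylase, stood at 664 and 715 CPM in WT against 52.9 and 59.7 CPM in DKO (log2 -3.61, SE 0.25, edgeR adjusted p = 1.41e-05). Cyp2j5, an epoxygenase of arachidonic acid, stood at 817 and 531 CPM in WT against 29.5 and 18.7 CPM in DKO (log2 -4.81, SE 0.41, edgeR adjusted p = 5.33e-05). Cyp2d40 fell to under 1 CPM, from 50.7 and 39.6 CPM in WT to 0.903 and 0.302 CPM in DKO (log2 -6.27, SE 0.60, edgeR adjusted p = 1.01e-04). Reads of the Cyp2d and Cyp3a genes can be split between close copies. Cyp3a59 was an exception to the direction, at 7.72 and 10.4 CPM in WT against 154 and 453 CPM in DKO (log2 5.06, SE 0.89, edgeR adjusted p = 0.00262), although its 2 DKO livers were far apart.

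Of 33 conjugating enzymes 20 were lower and 1 higher, with a median log2 of -1.41. Ugt3a2, which attaches sugars to small molecules, stood at 628 and 656 CPM in WT against 7.72 and 4.15 CPM in DKO (log2 -6.76, SE 0.35, edgeR adjusted p = 4.57e-06). Baat, the enzyme that joins bile acids to taurine or glycine, stood at 499 and 366 CPM in WT against 75.2 and 94.4 CPM in DKO (log2 -2.35, SE 0.26, edgeR adjusted p = 1.96e-04), and Sult1b1, a sulfotransferase of thyroid hormones, at 62.3 and 51.5 CPM in WT against 12.6 and 10.4 CPM in DKO (log2 -2.30, SE 0.27, edgeR adjusted p = 2.74e-04). All DKO values lay below all WT values for these enzymes, as they did for 32.7% of all genes tested. Of 37 hepatocyte transporters 23 were lower and 2 higher, with a median log2 of -1.21. Slc22a30, of the organic anion transporter family, stood at 208 and 169.8 CPM in WT against 3.25 and 1.52 CPM in DKO (log2 -6.32, SE 0.53, edgeR adjusted p = 4.81e-05). Slc17a2, of a family of phosphate and organic anion transporters, stood at 313 and 410.4 CPM in WT against 5.51 and 2.11 CPM in DKO (log2 -6.58, SE 0.62, edgeR adjusted p = 9.39e-05). Slco2b1, which takes up organic anions from blood, stood at 245 and 193 CPM in WT against 22.9 and 6.99 CPM in DKO (log2 -3.88, SE 0.45, edgeR adjusted p = 2.64e-04). The aromatic amino acid transporter Slc16a10 was 1 of the 2 that were higher, at 109 and 106 CPM in WT against 289 and 269 CPM in DKO (log2 1.37, SE 0.21, edgeR adjusted p = 0.00118). The counts of lower P450, conjugating and transporter genes moved by no more than 1.5 times with any of the 4 libraries left out.

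Enzymes of amino acid breakdown were called lower in 25 of 44 cases and higher in 1, with a median log2 of -1.16. Haao, which opens the ring of a tryptophan metabolite on the way to NAD, stood at 609.7 and 469.8 CPM in WT against 23.9 and 18.5 CPM in DKO (log2 -4.67, SE 0.29, edgeR adjusted p = 9.03e-06). Dpys, the dihydropyrimidinase of pyrimidine breakdown, stood at 388 and 419 CPM in WT against 13.4 and 33.7 CPM in DKO (log2 -4.10, SE 0.38, edgeR adjusted p = 8.84e-05). Mat1a, which makes S-adenosylmethionine in liver, stood at 4538 and 2640.5 CPM in WT against 254 and 289 CPM in DKO (log2 -3.72, SE 0.39, edgeR adjusted p = 1.43e-04). No DKO value reached the WT range for any of them. Of 8 urea cycle genes 2 were lower and none higher, with a median log2 of -0.36, which was 0.08 under total-count scaling.

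Of 21 genes of gluconeogenesis and glycogen 13 were lower and 3 higher, with a median log2 of -1.79, and 1 was higher without WT replicate 1 or DKO replicate 1. Pcx, pyruvate carboxylase at the entry to gluconeogenesis, stood at 700.4 and 689.5 CPM in WT against 167 and 131 CPM in DKO (log2 -2.22, SE 0.20, edgeR adjusted p = 7.58e-05). Pck1, the cytosolic enzyme of the next step, stood at 2611 and 3450.0 CPM in WT against 492 and 103 CPM in DKO (log2 -3.35, SE 0.75, edgeR adjusted p = 0.00894). Pck2, its mitochondrial counterpart, moved in the opposite direction and stood at 8.67 and 9.73 CPM in WT against 43.4 and 50.8 CPM in DKO (log2 2.35, SE 0.37, edgeR adjusted p = 0.00134). Gys2, the liver glycogen synthase, stood at 321 and 377 CPM in WT against 20.3 and 14 CPM in DKO (log2 -4.35, SE 0.49, edgeR adjusted p = 2.22e-04), and Pygl, the liver phosphorylase that breaks glycogen down, at 712 and 811 CPM in WT against 132 and 90.6 CPM in DKO (log2 -2.78, SE 0.29, edgeR adjusted p = 1.40e-04). Both ends of glycogen turnover were thus reduced together. Khk, the ketohexokinase of fructose metabolism, fell by 2.77 on the log2 scale. In the list of glycolytic isoforms of other tissues 5 of 22 were higher and 3 lower, and without WT replicate 1 or without DKO replicate 1 a single gene was higher. Pkm, the pyruvate kinase gene of tissues other than adult hepatocytes, stood at 18.1 and 31.7 CPM in WT against 208 and 116 CPM in DKO (log2 2.69, SE 0.42, edgeR adjusted p = 0.00142), and Eno1, an enolase, stood at 305 and 377 CPM in WT against 115 and 95.4 CPM in DKO (log2 -1.70, SE 0.30, edgeR adjusted p = 0.00271). The isoforms of other tissues did not rise as a group.

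Genes of the respiratory chain were lower by smaller amounts. Of 32 nuclear genes of the respiratory chain 24 were lower and none higher, with a median log2 of -0.73. Sdha and Sdhd, subunits of complex II, fell by 1.15 (SE 0.19) and 0.99 (SE 0.18) on the log2 scale. This count rested on particular libraries, with 3 lower without WT replicate 1, 9 without DKO replicate 1 and 12 without DKO replicate 2. Mitochondrially encoded transcripts held 2.17% and 1.46% of counts in WT and 1.17% and 0.861% in DKO. Of 32 genes of fatty acid oxidation and ketogenesis 16 were lower and 2 higher, and 6 to 10 were lower with any 1 library left out. Bdh1, which makes the ketone body 3-hydroxybutyrate, stood at 364 and 367 CPM in WT against 50.3 and 113 CPM in DKO (log2 -2.16, SE 0.35, edgeR adjusted p = 0.00168). Acaa1b, a peroxisomal thiolase, stood at 1551 and 1153 CPM in WT against 222 and 218 CPM in DKO (log2 -2.62, SE 0.44, edgeR adjusted p = 0.00202). Acot2, a thioesterase that releases fatty acids from CoA in mitochondria, was higher, at 9.78 and 9.19 CPM in WT against 127 and 159 CPM in DKO (log2 3.92, SE 0.33, edgeR adjusted p = 5.15e-05). Of 25 haem and iron genes tested of 26 listed names 9 were lower and none higher. Alad, Cpox and Fech, enzymes at the second, the sixth and the last step of haem synthesis, fell by 2.17, 2.04 and 1.14 on the log2 scale.

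**Figure D2:**
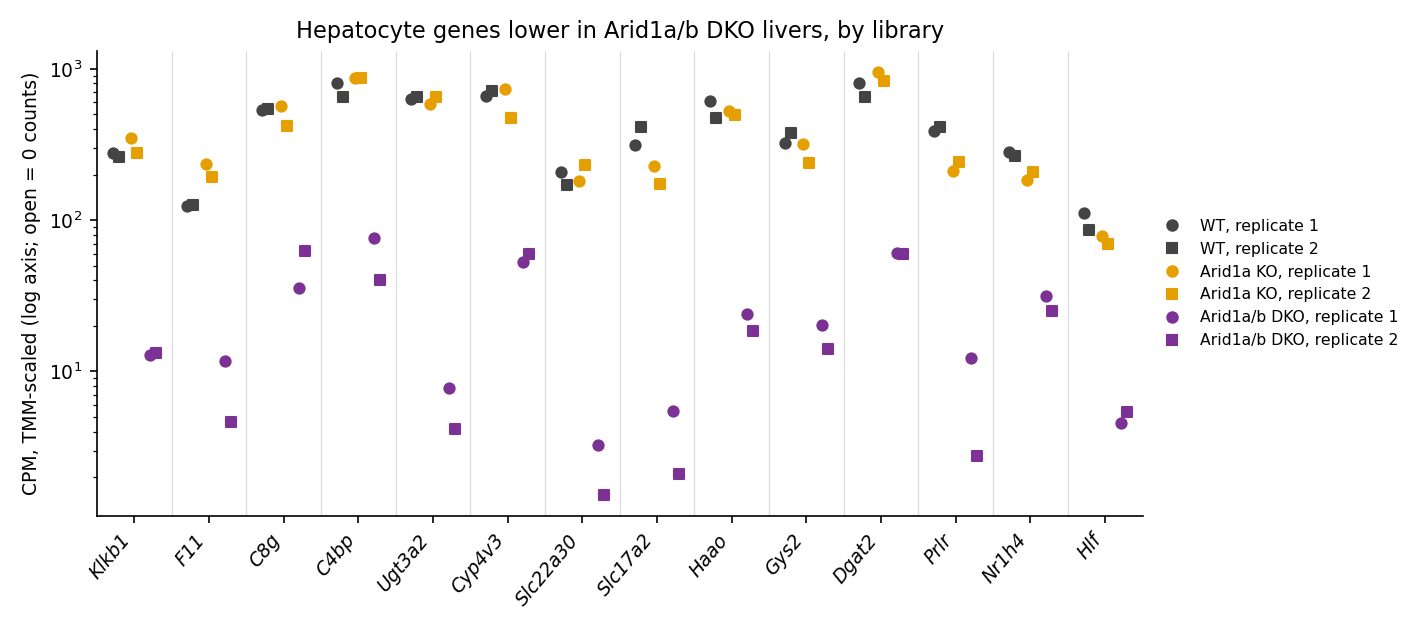
CPM (log axis) of 14 genes that were lower in DKO, with 1 point per library for WT, Arid1a KO and DKO at 9 days. For each gene both DKO points lie below all WT and Arid1a KO points, and the Arid1a KO points lie close to the WT points.

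The lipid droplet genes split. Of 28 tested of 30 listed, 7 were higher and 9 lower. Plin3, a droplet coat protein of many tissues, stood at 42.5 and 50.9 CPM in WT against 205 and 197 CPM in DKO (log2 2.11, SE 0.17, edgeR adjusted p = 4.07e-05). Cidec, which fuses droplets, stood at 6.13 and 5.73 CPM in WT against 35.7 and 147 CPM in DKO (log2 3.95, SE 0.58, edgeR adjusted p = 1.00e-03). Hilpda, an inhibitor of the lipase ATGL, stood at 3.66 and 3.18 CPM in WT against 18.1 and 16.7 CPM in DKO (log2 2.35, SE 0.36, edgeR adjusted p = 0.00117). Scd2, a stearoyl-CoA desaturase that adult liver has at low level, stood at 10.5 and 15.1 CPM in WT against 279.8 and 251 CPM in DKO (log2 4.36, SE 0.40, edgeR adjusted p = 7.66e-05). By contrast Dgat2, which makes triglyceride, stood at 812 and 656 CPM in WT against 60.8 and 59.8 CPM in DKO (log2 -3.60, SE 0.40, edgeR adjusted p = 2.19e-04). Plin5, the droplet coat that contacts mitochondria, stood at 88.3 and 38.5 CPM in WT against 13.6 and 12.3 CPM in DKO (log2 -2.29, SE 0.42, edgeR adjusted p = 0.00349). Genes for storage and for coating droplets were therefore found on both sides. Without WT replicate 1 there were 4 higher and 3 lower, and without DKO replicate 1 there were 5 lower.

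Transcription factors of hepatocytes were lower in 14 of 32 cases and higher in 2, with a median log2 of -0.95. Hnf4a, a central regulator of hepatocyte genes, stood at 1046 and 987 CPM in WT against 764 and 742 CPM in DKO and was not called (log2 -0.43, SE 0.21, edgeR adjusted p = 0.147). Nr1h4, the bile acid receptor FXR, stood at 281 and 266 CPM in WT against 31.7 and 24.9 CPM in DKO (log2 -3.27, SE 0.32, edgeR adjusted p = 1.12e-04). Onecut2, a factor of liver development, stood at 161 and 199.6 CPM in WT against 23.8 and 31.1 CPM in DKO (log2 -2.71, SE 0.47, edgeR adjusted p = 0.00234). Thrb, the thyroid hormone receptor beta, and Zbtb20, a repressor of alpha-fetoprotein, fell by 1.12 and 1.05 on the log2 scale. Hlf, a PAR-family factor that follows the circadian clock, stood at 111 and 86.4 CPM in WT against 4.54 and 5.35 CPM in DKO (log2 -4.32, SE 0.63, edgeR adjusted p = 9.80e-04). It was 1 of 2 lower genes among 19 of the clock, a share below the 13.8% lower of all genes tested. With a library left out, 6 of the hepatocyte factors were lower without WT replicate 1, 9 without WT replicate 2 and 7 without DKO replicate 1.

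Growth hormone acts on the liver through its receptor and STAT5 and raises IGF-1. Of 18 genes of this axis 9 were lower and none higher, with a median log2 of -1.85. Ghr, the receptor, stood at 755 and 564 CPM in WT against 88.3 and 110.2 CPM in DKO (log2 -2.73, SE 0.27, edgeR adjusted p = 1.09e-04). Igf1, the secreted effector, stood at 980.5 and 814 CPM in WT against 249 and 218 CPM in DKO (log2 -1.94, SE 0.23, edgeR adjusted p = 3.29e-04). Prlr, the prolactin receptor, which is related to Ghr, stood at 387 and 415 CPM in WT against 12.2 and 2.76 CPM in DKO (log2 -5.75, SE 0.74, edgeR adjusted p = 4.93e-04). Egfr, the receptor of epidermal growth factor, stood at 1047 and 478 CPM in WT against 56.8 and 36.7 CPM in DKO (log2 -4.03, SE 0.53, edgeR adjusted p = 5.36e-04). All 4 were lower in both DKO livers than in either WT liver. Igfbp2, an IGF-binding protein, stood at 261 and 439 CPM in WT against 761 and 783 CPM in DKO and was not called (log2 1.14, SE 0.49, edgeR adjusted p = 0.109).

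Among 27 subunits of the BAF, PBAF and ncBAF complexes tested of 30 listed names, 2 were higher and 3 lower. Both were below the 12.6% higher and 13.8% lower of all genes tested. Smarca2, which encodes BRM, one of the alternative ATPases of the complex, stood at 233 and 219.6 CPM in WT against 85.8 and 72.9 CPM in DKO (log2 -1.51, SE 0.23, edgeR adjusted p = 0.00111). Smarca4, which encodes the other ATPase, BRG1, stood at 95.1 and 99.6 CPM in WT against 108 and 123 CPM in DKO and was not called (log2 0.25, SE 0.16, edgeR adjusted p = 0.268). The Smarca2 values of the groups were well apart and those of Smarca4 were close. Arid1b, above, was another of the 3 lower genes, and 1 or 2 were lower with any library left out.

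Some genes without a count in WT liver were detected in both DKO livers. Where a group had 0 counts, its sum was set to 3 counts and the fold is a lower bound. Of named genes, 8 had 0 counts in both WT livers and at least 1 CPM in both DKO livers. Krt20, a keratin of gut and bladder lining, stood at 59.3 and 30.7 CPM in DKO, at least 623-fold higher than in WT. Nefm, a neurofilament subunit of axons, stood at 27.8 and 29 CPM, at least 422-fold higher. Sprr1a, a protein of the cornified envelope of skin that is also made in injured epithelia, stood at 14 and 37.6 CPM, at least 416-fold higher. These genes have their usual homes in unrelated tissues. Serpina1f, a serpin of the epididymis, stood at 5.18 and 2.59 CPM (at least 53.6-fold) and Meltf, melanotransferrin, at 5.11 and 1.92 CPM (at least 47.3-fold). In the reverse direction, 2 named genes had 0 counts in DKO and at least 1 CPM in both WT livers, namely Slc22a28 at 13.7 and 6.93 CPM (at least 309.6-fold lower) and Igsf21 at 2.7 and 1.07 CPM (at least 53.7-fold lower).

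Other genes rose from a low level. Dusp9, a phosphatase of MAP kinases known from placenta, stood at 0.0796 and 0.22 CPM in WT against 58.5 and 38.4 CPM in DKO (log2 8.08, SE 0.88, edgeR adjusted p = 1.84e-04). Wfikkn2, a secreted protein that binds myostatin-like factors, stood at 0.239 and 0.157 CPM in WT against 74.5 and 16 CPM in DKO (log2 7.89, SE 0.96, edgeR adjusted p = 3.40e-04). Pde6c, a phosphodiesterase of cone photoreceptors, stood at 0 and 0.189 CPM in WT against 41.3 and 25.6 CPM in DKO (log2 7.97, SE 1.12, edgeR adjusted p = 7.88e-04). Cdhr2, a cadherin that links neighbouring microvilli, stood at 0 and 0.189 CPM in WT against 215 and 149.7 CPM in DKO (log2 10.39, SE 0.85, edgeR adjusted p = 4.21e-05). Sytl5, an effector of Rab GTPases, had 2 counts in WT and stood at 4.18 and 11 CPM in DKO, a ratio of 183 with a 95% counting interval of 50.6 to 1516. Ctsj, a cathepsin of the placenta, had 1 count in WT and stood at 6.08 and 2.08 CPM in DKO, a ratio of 163 with an interval of 29.1 to 6467. Counting intervals and floors cover counting error only.

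**Figure D3:**
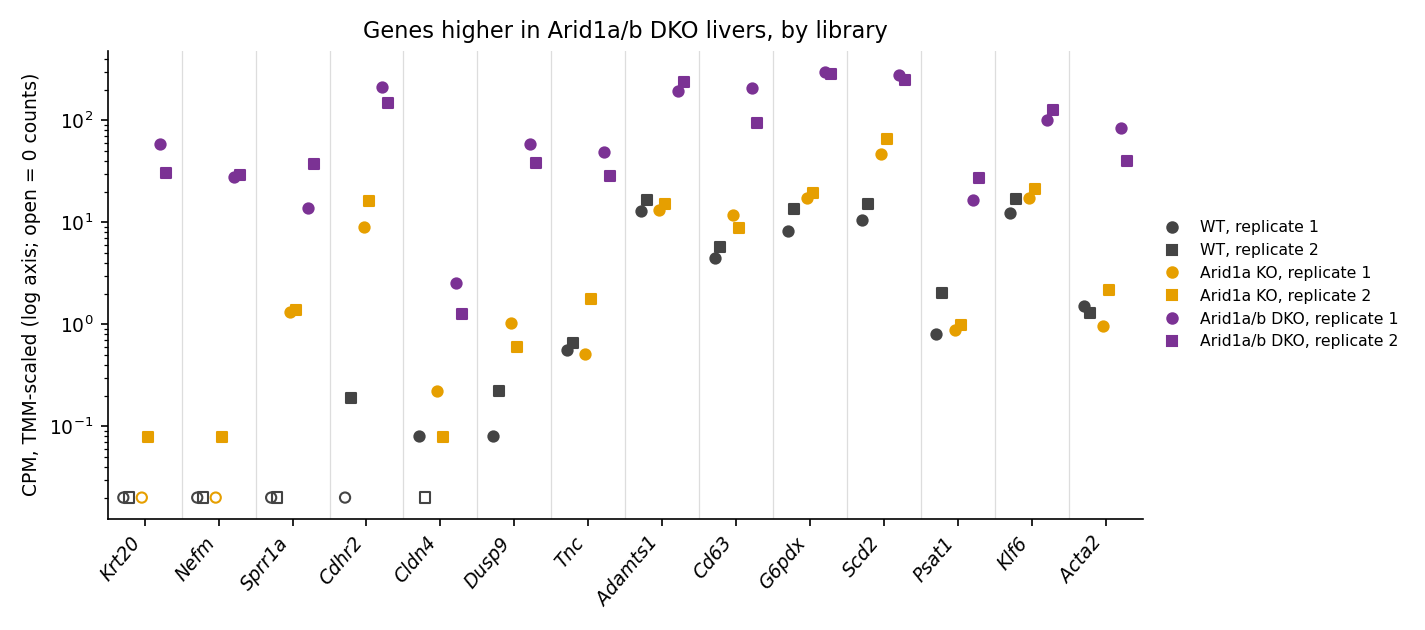
CPM (log axis) of 14 genes that were higher in DKO, with 1 point per library for WT, Arid1a KO and DKO at 9 days and open symbols for libraries with 0 counts. For each gene both DKO points lie above all WT and Arid1a KO points.

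Promoters are shown for 3 genes, chosen after their values were seen, so that a reader can see a short motif in place. They are the 250 bases before the RefSeq start of the gene on GRCm38.p6, printed 5′ to 3′ on the strand of the gene, with the motif in capitals. The motif is TGANTCA, bound by AP-1 factors such as Fos and Jun. Both strands were searched. Sprr1a (chr3:92485882-92486131, minus strand), Cldn4 (chr5:134946935-134947184, minus strand) and Srxn1 (chr2:152105274-152105523, plus strand) hold TGANTCA 2 times each and were higher in DKO.
Sprr1a: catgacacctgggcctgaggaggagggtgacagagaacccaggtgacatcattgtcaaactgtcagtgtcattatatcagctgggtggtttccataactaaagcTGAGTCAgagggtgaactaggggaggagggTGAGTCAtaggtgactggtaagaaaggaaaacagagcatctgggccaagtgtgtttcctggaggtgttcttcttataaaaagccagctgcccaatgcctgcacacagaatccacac
Cldn4: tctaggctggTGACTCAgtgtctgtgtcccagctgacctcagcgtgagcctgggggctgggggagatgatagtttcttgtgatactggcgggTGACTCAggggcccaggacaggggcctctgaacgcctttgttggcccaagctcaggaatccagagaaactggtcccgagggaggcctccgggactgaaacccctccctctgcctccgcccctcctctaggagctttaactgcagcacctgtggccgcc
Srxn1: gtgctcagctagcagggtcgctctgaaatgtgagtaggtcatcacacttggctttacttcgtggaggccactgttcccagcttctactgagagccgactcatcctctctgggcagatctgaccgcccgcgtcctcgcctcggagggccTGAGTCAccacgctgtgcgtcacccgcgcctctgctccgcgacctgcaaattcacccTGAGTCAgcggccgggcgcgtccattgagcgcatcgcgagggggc
Of 27025 windows of the same length, 6.87% hold TGANTCA. A match is a description of the sequence and not evidence that a factor was bound. Windows were found for 77.8% of the higher and 78.6% of the lower coding genes, under 80%, so motif shares among called genes were not compared.

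Epithelial genes moved in both directions. Of 10 keratins tested of 21 listed, 3 were higher and none lower. Krt8 and Krt18, the keratin pair that hepatocytes normally make, stood at 252 and 187 CPM in WT against 929.5 and 1394 CPM in DKO (log2 2.40, SE 0.33, edgeR adjusted p = 6.78e-04) and at 169.7 and 165 CPM in WT against 1074 and 1398 CPM in DKO (log2 2.88, SE 0.26, edgeR adjusted p = 7.20e-05). Of 20 brush border and gut genes tested of 41 listed, 8 were higher and 2 lower. Fabp2, the intestinal fatty acid binding protein, stood at 77.2 and 46 CPM in WT against 136 and 195 CPM in DKO (log2 1.43, SE 0.29, edgeR adjusted p = 0.00558), and Vill, a villin-like actin-binding protein, at 1.51 and 0.63 CPM in WT against 5.63 and 10.5 CPM in DKO (log2 2.99, SE 0.55, edgeR adjusted p = 0.00332). Ctse, an aspartic protease of stomach, went down, at 29.3 and 29 CPM in WT against 0.404 and 0.286 CPM in DKO (log2 -6.40, SE 1.27, edgeR adjusted p = 0.00495). Of 22 claudins and junction genes tested of 28 listed, 4 were higher and 6 lower. Tjp1, the junction scaffold ZO-1, stood at 48.4 and 53.2 CPM in WT against 97.1 and 125 CPM in DKO (log2 1.13, SE 0.19, edgeR adjusted p = 0.00228). Cldn2, a pore-forming claudin, stood at 115 and 137 CPM in WT against 14.9 and 3.26 CPM in DKO (log2 -3.80, SE 0.58, edgeR adjusted p = 0.0012), and Ceacam1, an adhesion protein of the bile canaliculus, at 181 and 244 CPM in WT against 15.4 and 13.8 CPM in DKO (log2 -3.86, SE 0.34, edgeR adjusted p = 6.48e-05). Cldn4, a barrier claudin, had 1 count in WT and stood at 2.52 and 1.27 CPM in DKO, a ratio of 78.5 with a 95% counting interval of 13.9 to 3117. Cldn4 was called by edgeR (adjusted p = 0.00877), and the call was lost without WT replicate 2 (adjusted p = 0.077).

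Of 18 cornified envelope and desmosome genes tested of 34 listed, 6 were higher and 2 lower. Tgm1, the transglutaminase that cross-links the envelope, was among the lower ones, at 45.6 and 62.1 CPM in WT against 6.91 and 7.78 CPM in DKO (log2 -2.87, SE 0.30, edgeR adjusted p = 1.49e-04). The list therefore did not move as a unit. Of 19 neuronal genes tested of 40 listed, 8 were higher and 1 lower, and Tubb2b, a beta-tubulin of growing neurons with close copies, stood at 0.318 and 0.22 CPM in WT against 11.3 and 28.4 CPM in DKO (log2 6.25, SE 0.91, edgeR adjusted p = 9.45e-04). Of 33 developmental transcription factors tested of 55 listed, 9 were higher and 6 lower. Sox4, a factor of progenitor cells, stood at 2.47 and 1.83 CPM in WT against 12.9 and 17.4 CPM in DKO (log2 2.84, SE 0.38, edgeR adjusted p = 5.92e-04), and Runx2, a factor of bone formation, at 0.239 and 0.661 CPM in WT against 5.08 and 2.84 CPM in DKO (log2 3.01, SE 0.57, edgeR adjusted p = 0.00383). Hes6, a HES-family factor, and Tbx3, a T-box factor of liver, were lower, with a log2 of -3.40 (SE 0.39) and -3.95 (SE 0.62). Of 9 Hox genes tested of 39 listed none was called in either direction by edgeR, 1 was higher at an unadjusted p under 0.05, and DESeq2 called none. Of 22 oncofetal liver genes tested of 28 listed, 8 were higher and none lower, Akr1b8 (log2 1.90, SE 0.36) and Cd24a (log2 2.22, SE 0.40) among them. Of 24 imprinted genes tested of 30 listed 5 were higher and none lower, and Peg10, a retrotransposon-derived gene expressed from the paternal allele, stood at 0.159 and 0.346 CPM in WT against 2.71 and 2.83 CPM in DKO (log2 3.31, SE 0.65, edgeR adjusted p = 0.00463).

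The counts of higher genes in these lists fell with a library left out. Without WT replicate 1 they were 4 for brush border, 2 for claudins, 1 for cornified envelope, 2 for neuronal, 2 for developmental, 3 for oncofetal and 1 for imprinted genes. Without WT replicate 2 they were 5, 2, 2, 4, 4, 4 and 2 in the same order. Without DKO replicate 1 the brush border, neuronal, developmental, oncofetal and imprinted lists had 4, 4, 4, 5 and 1 higher genes. For the lower developmental factors the count was 2 or 3 in each of the 4 fits. The 3 keratins kept their calls in every one of these fits.

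Genes of cell division were higher in DKO, but these calls depended on single libraries. Of 32 mitosis genes 23 were higher and none lower, with a median log2 of 2.10. Their summed level was 85.1 and 211 CPM in WT against 301 and 796 CPM in DKO, so that each DKO liver lay above both WT livers while both pairs differed widely within themselves. Without WT replicate 1, and likewise without DKO replicate 2, none of the 32 was called. Of 37 genes of DNA replication and S phase, 3 were higher and 2 lower, with a median log2 of 0.62, and 1 was higher without WT replicate 1, WT replicate 2 or DKO replicate 2. The S-phase counts were below the 12.6% higher and 13.8% lower of all genes tested. E2f2, a transcription factor that activates S-phase genes, stood at 3.74 and 3.15 CPM in WT against 13.8 and 25.7 CPM in DKO (log2 2.53, SE 0.32, edgeR adjusted p = 4.31e-04). Mcm10, which helps to load DNA polymerase alpha, moved the other way, at 112 and 135 CPM in WT against 8.72 and 11.6 CPM in DKO (log2 -3.60, SE 0.35, edgeR adjusted p = 1.09e-04). Of 19 G1 cyclins, CDK inhibitors and Myc genes 5 were higher and none lower. Cdkn2b, which encodes the CDK4/6 inhibitor p15, stood at 0.159 and 0.472 CPM in WT against 2.52 and 9.98 CPM in DKO (log2 4.14, SE 0.74, edgeR adjusted p = 0.00282). The G1 count was 1 to 3 with any 1 library left out.

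Of 24 p53 targets, 12 were higher and 3 lower, and 3 were higher without WT replicate 1. Btg2, an antiproliferative immediate early gene, stood at 20.8 and 38.3 CPM in WT against 426 and 269.8 CPM in DKO (log2 3.55, SE 0.53, edgeR adjusted p = 0.00111). Trp53inp1, a p53-inducible gene that promotes autophagy and cell death, stood at 70.5 and 52.2 CPM in WT against 415 and 196 CPM in DKO (log2 2.32, SE 0.42, edgeR adjusted p = 0.00298), and Ei24, an endoplasmic reticulum protein of autophagy, at 236 and 210.1 CPM in WT against 82.8 and 83.5 CPM in DKO (log2 -1.42, SE 0.17, edgeR adjusted p = 3.09e-04). Ei24 was lower in both DKO livers and the other genes higher. Of 27 apoptosis and necroptosis genes, 6 were higher and 3 lower, and 1 was higher without WT replicate 1, 3 without WT replicate 2 and 3 without DKO replicate 2. Tnfrsf12a, the receptor of the cytokine TWEAK, stood at 9.86 and 12.8 CPM in WT against 48.4 and 132 CPM in DKO (log2 2.98, SE 0.41, edgeR adjusted p = 6.90e-04). Gsdmd, the pore-forming effector of pyroptosis, stood at 69.8 and 74 CPM in WT against 29.7 and 16.6 CPM in DKO (log2 -1.64, SE 0.24, edgeR adjusted p = 9.71e-04).

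AP-1 is a dimer of Fos and Jun proteins that responds to growth factors and stress. Of 21 AP-1 and immediate early genes tested of 25 listed, 7 were higher and 1 lower, with a median log2 of 1.17, and 3 were higher without WT replicate 1. Klf6, a zinc finger factor induced by injury, stood at 12.3 and 17 CPM in WT against 101 and 126 CPM in DKO (log2 2.95, SE 0.28, edgeR adjusted p = 1.04e-04). Nr4a1, an orphan nuclear receptor of the immediate early class, stood at 3.58 and 9.07 CPM in WT against 52.9 and 31.1 CPM in DKO (log2 2.70, SE 0.51, edgeR adjusted p = 0.00387). Jun itself stood at 44.2 and 60.5 CPM in WT against 92.7 and 128 CPM in DKO and was not called (log2 1.07, SE 0.61, edgeR adjusted p = 0.215). Of 23 feedback genes of MAP kinase signalling tested of 24 listed, 6 were higher and none lower, and 3 were higher without either WT library. Spry1 and Dusp5, inhibitors that ERK signalling induces, stood at 4.06 and 6.36 CPM in WT against 19.8 and 16.6 CPM in DKO (log2 1.79, SE 0.30, edgeR adjusted p = 0.00199) and at 0.398 and 1.89 CPM in WT against 8.93 and 8.29 CPM in DKO (log2 2.81, SE 0.59, edgeR adjusted p = 0.00676). Both DKO livers exceeded both WT livers for these genes.

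YAP is a co-activator that acts through TEAD factors when contact inhibition is low. Of 30 YAP and TEAD genes tested of 33 listed names, 16 were higher and 1 lower, with a median log2 of 1.41. Fstl1, a secreted glycoprotein of mesenchyme, stood at 9.78 and 8.59 CPM in WT against 94.9 and 48.4 CPM in DKO (log2 2.97, SE 0.37, edgeR adjusted p = 4.27e-04). Thbs1, thrombospondin 1, stood at 2.07 and 4.03 CPM in WT against 62.5 and 29.7 CPM in DKO (log2 3.88, SE 0.66, edgeR adjusted p = 0.00217), and Arhgef17, a guanine nucleotide exchange factor, at 6.13 and 6.08 CPM in WT against 20.5 and 12.7 CPM in DKO (log2 1.44, SE 0.28, edgeR adjusted p = 0.00424). Yap1 stood at 101 and 99.2 CPM in WT against 103 and 168 CPM in DKO and was not called (log2 0.44, SE 0.23, edgeR adjusted p = 0.186), but was without DKO replicate 1 (log2 0.75). The count of higher genes was 5 without WT replicate 1 and 7 without WT replicate 2. Of 19 Wnt feedback genes tested of 25 listed, 6 were higher and 3 lower, and 1 was higher without either WT library and 2 without DKO replicate 1. Notum, a secreted lipase that inactivates Wnt proteins, stood at 45.1 and 51.5 CPM in WT against 1.76 and 2.37 CPM in DKO (log2 -4.54, SE 0.44, edgeR adjusted p = 1.03e-04). Tnfrsf19, a receptor induced by Wnt signalling, stood at 5.25 and 5.92 CPM in WT against 0.689 and 1.22 CPM in DKO (log2 -2.53, SE 0.36, edgeR adjusted p = 7.99e-04), and Dkk3, of the Dickkopf family, at 1.43 and 2.14 CPM in WT against 17.9 and 6.43 CPM in DKO (log2 2.74, SE 0.47, edgeR adjusted p = 0.00241). The feedback genes did not share 1 direction, and without DKO replicate 2 there were 6 lower genes.

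Genes of redox defence were mostly raised. NRF2 is a transcription factor that induces antioxidant enzymes. Of 27 NRF2 targets 15 were higher and none lower, with a median log2 of 1.16, and 7 were higher without WT replicate 1. G6pdx and Pgd, the enzymes of the pentose phosphate pathway that make NADPH, stood at 8.27 and 13.5 CPM in WT against 298 and 282 CPM in DKO (log2 4.72, SE 0.34, edgeR adjusted p = 2.09e-05) and at 64.8 and 78.3 CPM in WT against 234 and 267 CPM in DKO (log2 1.81, SE 0.33, edgeR adjusted p = 0.00321). Srxn1, the sulfiredoxin that repairs peroxiredoxins, stood at 60.2 and 92.2 CPM in WT against 906 and 1290.0 CPM in DKO (log2 3.85, SE 0.48, edgeR adjusted p = 3.85e-04). Both DKO livers were well above WT for these genes. Of 25 genes of the integrated stress response 11 were higher and 4 lower, and 5 were higher without WT replicate 1, while 2 were lower without WT replicate 1 and 1 without DKO replicate 1. Psat1, of serine synthesis, stood at 0.796 and 2.01 CPM in WT against 16.4 and 27 CPM in DKO (log2 3.88, SE 0.54, edgeR adjusted p = 7.13e-04). Aldh18a1 and Pycr1, enzymes that make proline, stood at 1.75 and 2.68 CPM in WT against 21.7 and 18.7 CPM in DKO (log2 3.16, SE 0.57, edgeR adjusted p = 0.0029) and at 0.477 and 0.378 CPM in WT against 3.14 and 2.62 CPM in DKO (log2 2.77, SE 0.52, edgeR adjusted p = 0.00361). Slc7a1, the importer of arginine and lysine, stood at 0.796 and 1.61 CPM in WT against 14 and 15 CPM in DKO (log2 3.54, SE 0.54, edgeR adjusted p = 0.0012). Shmt2, a mitochondrial enzyme of serine breakdown, moved against them, at 335 and 273 CPM in WT against 95.7 and 80.3 CPM in DKO (log2 -1.79, SE 0.24, edgeR adjusted p = 6.06e-04).

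Of 26 genes of lysosomes and phagocytosis 12 were higher and 1 lower. Ctsl, cathepsin L, stood at 429 and 387 CPM in WT against 2430.5 and 1687 CPM in DKO (log2 2.33, SE 0.22, edgeR adjusted p = 1.01e-04). Cd63, a tetraspanin of late endosomes, stood at 4.45 and 5.76 CPM in WT against 209.8 and 93.5 CPM in DKO (log2 4.88, SE 0.50, edgeR adjusted p = 1.33e-04). Lamp2, a lysosomal membrane protein of chaperone-mediated autophagy, was the lower one, at 864 and 768 CPM in WT against 389 and 273 CPM in DKO (log2 -1.30, SE 0.27, edgeR adjusted p = 0.00604). The number of higher genes was 4 without WT replicate 1 and 7 without DKO replicate 1. Of 24 genes of ribosome biogenesis 6 were higher and none lower, and 1, 0 and 1 were higher without WT replicate 1, WT replicate 2 and DKO replicate 2. Ppa1, the cytosolic pyrophosphatase, stood at 245 and 154 CPM in WT against 1084 and 861 CPM in DKO (log2 2.29, SE 0.24, edgeR adjusted p = 1.40e-04), and Hsd17b6, a steroid and retinol dehydrogenase, at 36.4 and 86.5 CPM in WT against 785 and 802 CPM in DKO (log2 3.69, SE 0.62, edgeR adjusted p = 0.00212). Both were among the 10 genes with the largest gain in CPM.

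Most of the collagen and matrix genes tested were higher in DKO. Of 25 collagens tested of 29 listed, 15 were higher and 2 lower, with a median log2 of 2.02, and this count moved by no more than 1.5 times with any of the 4 libraries left out. Col1a1, a chain of type I collagen, stood at 6.76 and 13.1 CPM in WT against 343 and 183 CPM in DKO (log2 4.70, SE 0.66, edgeR adjusted p = 7.73e-04). Col3a1, of type III collagen, stood at 34 and 47 CPM in WT against 865 and 434 CPM in DKO (log2 4.0, SE 0.56, edgeR adjusted p = 7.30e-04), and Col8a1, of type VIII collagen, at 0.318 and 0.409 CPM in WT against 16.8 and 7.29 CPM in DKO (log2 4.99, SE 0.66, edgeR adjusted p = 5.53e-04). In each case DKO replicate 1 stood above DKO replicate 2, and both stood above WT. Col27a1 was lower, at 163 and 97.8 CPM in WT against 17.8 and 17.6 CPM in DKO (log2 -2.88, SE 0.52, edgeR adjusted p = 0.00314). Of 49 matrix remodelling genes tested of 51 listed, 33 were higher and 2 lower, with a median log2 of 1.85, and 17 were higher without WT replicate 1 and 18 without DKO replicate 1. Tnc, tenascin C, stood at 0.557 and 0.661 CPM in WT against 49.4 and 28.2 CPM in DKO (log2 5.96, SE 0.69, edgeR adjusted p = 2.65e-04). Adamts1, a secreted metalloproteinase, stood at 13 and 16.5 CPM in WT against 196 and 239.8 CPM in DKO (log2 3.88, SE 0.25, edgeR adjusted p = 1.07e-05). Mmp12, the macrophage elastase, stood at 0.318 and 1.45 CPM in WT against 151 and 80.6 CPM in DKO (log2 6.85, SE 0.88, edgeR adjusted p = 4.83e-04). Lama3, a laminin chain of epithelial basement membranes, fell, at 32.8 and 26.1 CPM in WT against 1.19 and 1.22 CPM in DKO (log2 -4.60, SE 0.43, edgeR adjusted p = 9.38e-05). Fn1, fibronectin, which hepatocytes secrete, stood at 2072 and 2301 CPM in WT against 3812 and 2791 CPM in DKO and was not called (log2 0.59, SE 0.30).

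Of 37 cytoskeleton and annexin genes 25 were higher and none lower, with a median log2 of 1.50, and 12 were higher without WT replicate 1. Vim, the mesenchymal intermediate filament vimentin, stood at 22.3 and 39.9 CPM in WT against 165 and 145 CPM in DKO (log2 2.31, SE 0.37, edgeR adjusted p = 0.00152). Anxa2, a membrane-binding annexin, stood at 14.6 and 14.9 CPM in WT against 112 and 95.4 CPM in DKO (log2 2.81, SE 0.37, edgeR adjusted p = 5.34e-04), and Tagln2, an actin-binding transgelin, at 15.6 and 22.7 CPM in WT against 92.3 and 81.5 CPM in DKO (log2 2.17, SE 0.26, edgeR adjusted p = 2.96e-04). Actb, beta-actin, stood at 392 and 402 CPM in WT against 480.2 and 521 CPM in DKO and was not called (log2 0.34, SE 0.17, edgeR adjusted p = 0.169). Its groups did not overlap but lay close together.

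Marker genes of the other cells of the liver were examined in the same libraries. Of 12 myofibroblast markers 11 were higher and none lower, with a median log2 of 3.09. Their summed level was 78.0 and 115 CPM in WT against 1873 and 901 CPM in DKO. Col1a1, Col1a2, Col3a1, Postn and Lox of this list are also in the collagen or matrix lists above. Most of the DKO sum came from Col1a1 and Col3a1. Acta2, smooth muscle actin, stood at 1.51 and 1.29 CPM in WT against 84.7 and 40.4 CPM in DKO (log2 5.49, SE 0.59, edgeR adjusted p = 1.62e-04), and Tagln, a protein of contractile cells, at 2.07 and 2.11 CPM in WT against 16.6 and 11.4 CPM in DKO (log2 2.74, SE 0.34, edgeR adjusted p = 3.75e-04). Of 14 stellate cell markers 3 were higher, 1 lower and 10 not called, beside 12.6% higher and 13.8% lower of all genes tested. Their median log2 was 0.41, but -0.18 without DKO replicate 1 and 0.88 without DKO replicate 2. Their summed level was 340 and 431 CPM in WT against 676 and 343 CPM in DKO. Pdgfrb, a receptor of stellate cells and fibroblasts, was 1 of the 3. It stood at 8.51 and 11.1 CPM in WT against 65.1 and 41.5 CPM in DKO (log2 2.44, SE 0.33, edgeR adjusted p = 6.55e-04). Of 14 monocyte and recruited macrophage markers 10 were higher and none lower, with a median log2 of 2.45, and 6 were higher without DKO replicate 1. Their summed level was 324 and 562 CPM in WT against 1735 and 817 CPM in DKO. Cx3cr1, the fractalkine receptor, stood at 1.59 and 1.89 CPM in WT against 13.6 and 10.3 CPM in DKO (log2 2.77, SE 0.43, edgeR adjusted p = 0.0014). Ly6c2, a marker of inflammatory monocytes, stood at 1.43 and 1.23 CPM in WT against 10.9 and 11.8 CPM in DKO (log2 3.11, SE 0.52, edgeR adjusted p = 0.00197). Itgax, the integrin CD11c, was listed with the dendritic cell markers and not with these. It stood at 2.31 and 3.56 CPM in WT against 32.5 and 18.4 CPM in DKO (log2 3.09, SE 0.47, edgeR adjusted p = 0.00122). Csf1r and Clec4f, which resident Kupffer cells express, stood at 88.1 and 182 CPM in WT against 333 and 163 CPM in DKO and at 223 and 339 CPM in WT against 527 and 340.1 CPM in DKO, and neither was called. None of 10 Kupffer markers was higher and 1 was lower than in WT of the same day, but 6 were higher against the 30-day WT livers.

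Of 12 cholangiocyte markers tested of 15 listed, 6 were higher and 1 lower, and 2 were higher without WT replicate 1, 3 without WT replicate 2 and 2 without DKO replicate 1. Their summed level was 104 and 87.0 CPM in WT against 511 and 209 CPM in DKO, and most of the DKO sum was Spp1. Spp1, osteopontin, which cholangiocytes and macrophages make, stood at 44.7 and 30 CPM in WT against 400.2 and 139 CPM in DKO (log2 2.85, SE 0.56, edgeR adjusted p = 0.00492). No T or NK cell marker of 15 and no B or plasma cell marker of 10 was called by edgeR or by DESeq2, and at an unadjusted p under 0.05 there were 3 higher and 1 lower among the former and none among the latter. The summed T and NK markers were 10.6 and 19.3 CPM in WT against 17.9 and 16.8 CPM in DKO. Of 8 dendritic cell markers 4 were higher and none lower, and 2 without WT replicate 1, WT replicate 2 or DKO replicate 1. In DKO replicate 1 the summed markers of macrophages, myofibroblasts and cholangiocytes were all above those of DKO replicate 2. Spp1 is in both the macrophage and the cholangiocyte sum, so these are not separate observations. The part of these cells in the matrix, cytoskeletal, lysosomal and YAP results above was not tested.

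**Figure D4:**
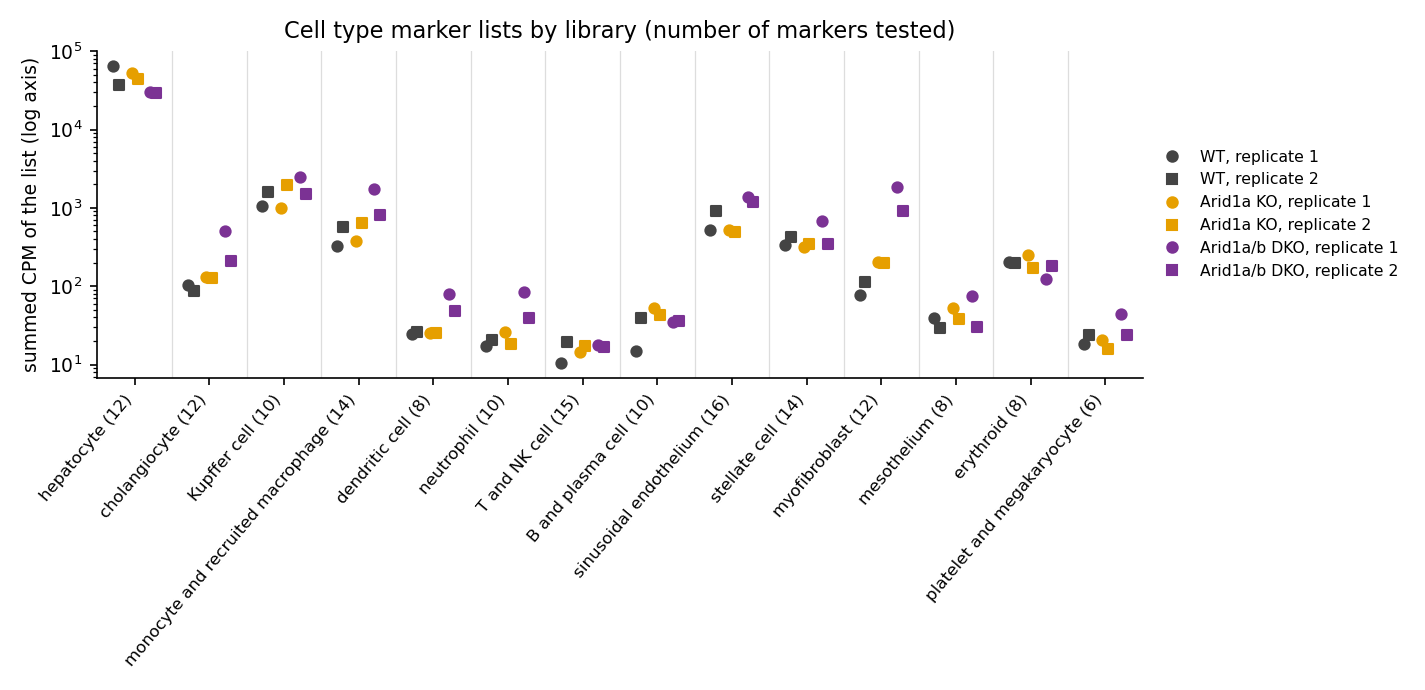
Summed CPM (log axis) of the marker genes of 14 cell types in each library of WT, Arid1a KO and DKO at 9 days. The DKO points of myofibroblasts (1873 and 901 CPM) and of recruited macrophages (1735 and 817 CPM) lie above both WT points, and those of T and NK cells (17.9 and 16.8 CPM) lie within the WT range.

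Of 39 interferon-stimulated genes 15 were higher in DKO than in WT and none lower, with a median log2 of 0.94, and 4 were higher without WT replicate 1, 7 without WT replicate 2 and 6 without DKO replicate 2. Isg15, a ubiquitin-like protein, stood at 15.7 and 17.2 CPM in WT against 88.9 and 165 CPM in DKO (log2 2.95, SE 0.30, edgeR adjusted p = 1.29e-04). Oas1a, a sensor of double-stranded RNA, stood at 5.73 and 7.02 CPM in WT against 26.8 and 41.1 CPM in DKO (log2 2.41, SE 0.43, edgeR adjusted p = 0.00278). Of 21 genes of antigen presentation none was higher and 3 were lower, with a median log2 of -0.31, and 1 was lower without WT replicate 1 or DKO replicate 1. That direction did not hold under other settings, since the median was 0.10 under total-count scaling, and against the 30-day WT livers it was 0.60 with 8 genes higher and 2 lower. H2-K1, a classical class I chain with close copies, stood at 1747 and 1742 CPM in WT against 712 and 978 CPM in DKO (log2 -1.05, SE 0.21, edgeR adjusted p = 0.00511). Of 21 chemokines tested of 28 listed, 4 were higher and 2 lower, not far from the 12.6% higher and 13.8% lower of all genes tested. Cx3cl1, fractalkine, stood at 0.477 and 0.787 CPM in WT against 9.71 and 2.53 CPM in DKO (log2 3.21, SE 0.61, edgeR adjusted p = 0.00414). Cxcl9, an attractant of T cells induced by interferon gamma, stood at 28.5 and 31.3 CPM in WT against 7.36 and 9.83 CPM in DKO (log2 -1.80, SE 0.28, edgeR adjusted p = 0.00142), and Cxcl12, the ligand of CXCR4, at 565 and 453 CPM in WT against 199 and 205 CPM in DKO (log2 -1.34, SE 0.22, edgeR adjusted p = 0.00183). Of 31 NF-kB targets and cytokines tested of 35 listed, 2 were higher and 2 lower, both below the shares of all genes tested. Il33, an alarmin of the IL-1 family, was 1 of the higher genes, at 2.86 and 2.68 CPM in WT against 10.7 and 9.32 CPM in DKO (log2 1.85, SE 0.35, edgeR adjusted p = 0.00385). Without WT replicate 1 the higher chemokines numbered 2.

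The DKO livers were also compared with livers labelled Arid1a KO of the same day, which differ from them by the second gene. This comparison and the one above share the DKO libraries, and Arid1a KO against WT shares libraries with both, so their values are set side by side and no overlap between them is given. Against Arid1a KO, 1769 genes (9.92%) were higher and 2159 (12.1%) lower in DKO. Arid1a KO itself, against the same WT livers, gave 48 higher (0.269%) and 53 lower genes (0.297%). Scaled by total counts alone the numbers against Arid1a KO were 4811 and 1285, with 78.9% of calls increases in place of 45.0%. With a library left out there were 421 higher and 1197 lower genes without Arid1a KO replicate 1, 443 and 1213 with Arid1a KO replicate 2 left out, and 960 and 1330 without DKO replicate 1. For coagulation factors 11 were lower against WT and 16 against Arid1a KO, and for complement components 14 and 16. For P450 genes the numbers were 21 and 18, for amino acid breakdown 25 and 29, and for transporters 23 and 22. The number of lower transporters against Arid1a KO was 14 without either Arid1a KO library. In Arid1a KO against WT the transporters had 1 higher and 1 lower gene, amino acid breakdown 1 lower gene, and the other 3 lists none called by edgeR. Klkb1 stood at 349 and 277 CPM and Ugt3a2 at 582 and 649 CPM in Arid1a KO, near the WT values. Against Arid1a KO their log2 in DKO was -4.58 (SE 0.23, edgeR adjusted p = 4.89e-06) and -6.70 (SE 0.35, edgeR adjusted p = 4.89e-06).

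**Figure D5:**
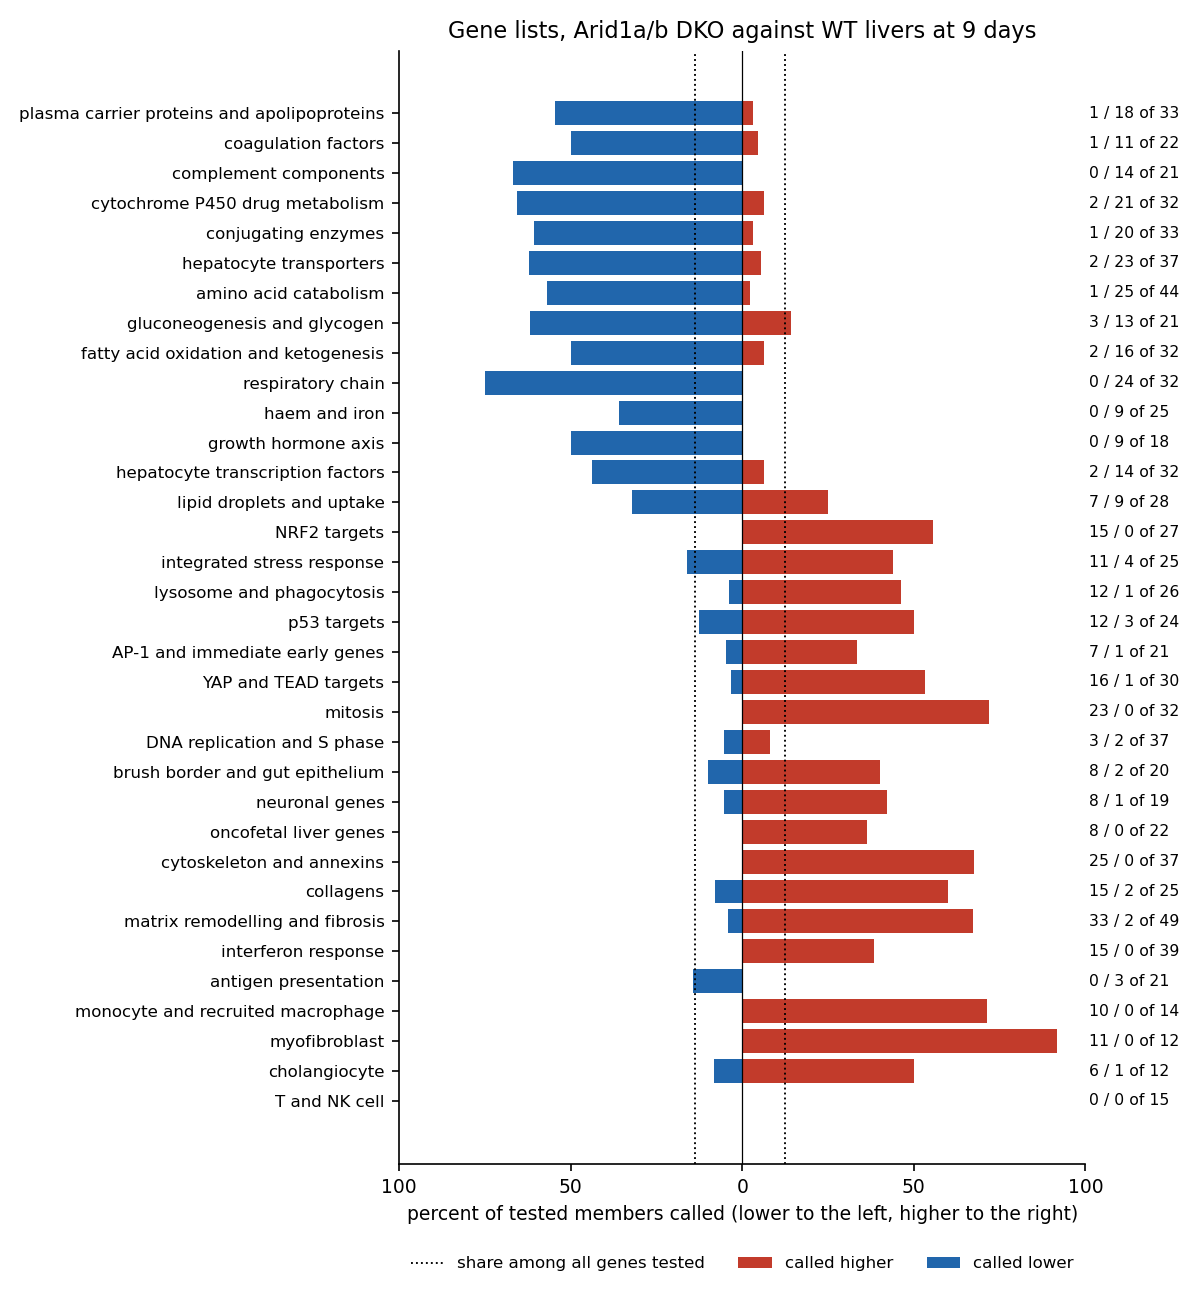
Percentage of the tested genes of 34 lists called higher (right) or lower (left) in DKO against WT, with dotted lines at the 13.8% lower and 12.6% higher of all genes tested. The P450, complement, transporter and respiratory chain bars extend to the left, and the mitosis, matrix, cytoskeleton and myofibroblast bars to the right.

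Some genes did not follow this split, in that Arid1a KO livers stood apart from WT as well. List medians also shifted where no gene was called in Arid1a KO against WT. The median log2 against WT was 0.77 in Arid1a KO and 0.97 in DKO for p53 targets, and 0.70 and 0.61 for imprinted genes. Of the interferon genes 15 were higher in DKO against WT and 5 in Arid1a KO against WT, with a median log2 of 1.30 in the latter, while in DKO against Arid1a KO none was higher and 3 were lower, or 8 without DKO replicate 2 and 1 without Arid1a KO replicate 1 or DKO replicate 1. Isg15 stood at 67.7 and 108 CPM in Arid1a KO (log2 2.42 against WT, edgeR adjusted p = 0.00753) and did not pass between DKO and Arid1a KO (log2 0.53, edgeR adjusted p = 0.195). Gbp3, an interferon-induced GTPase picked after its values were seen, stood at 24.1 and 40.1 CPM in WT, 103 and 123 CPM in Arid1a KO and 34.1 and 36.4 CPM in DKO. It was lower in DKO than in Arid1a KO (log2 -1.68, SE 0.28, edgeR adjusted p = 0.00252) and was not called in DKO against WT (edgeR adjusted p = 0.763). Tff3, a trefoil peptide of mucous epithelia, stood at 4.06 and 7.08 CPM in WT, 219.7 and 212 CPM in Arid1a KO and 50.9 and 51.3 CPM in DKO. It was therefore highest in Arid1a KO, above WT in DKO (log2 3.17, SE 0.52, edgeR adjusted p = 0.00179) and lower in DKO than in Arid1a KO (log2 -2.08, SE 0.48, edgeR adjusted p = 0.0127). Gstm3, a glutathione transferase with close copies, stood at 27.7 and 44.3 CPM in WT, 741 and 564 CPM in Arid1a KO and 739 and 470.2 CPM in DKO, and did not pass between the last 2 groups (log2 -0.11, SE 0.53, edgeR adjusted p = 0.907). E2f2 showed the same order, with 18.8 and 24 CPM in Arid1a KO (log2 -0.12, SE 0.30, edgeR adjusted p = 0.81). Scd2 was graded, at 10.5 and 15.1 CPM in WT, 47.2 and 65.4 CPM in Arid1a KO and 279.8 and 251 CPM in DKO, and DKO was above Arid1a KO (log2 2.24, SE 0.36, edgeR adjusted p = 0.0019). Cdhr2 was graded as well, with 8.94 and 16.2 CPM in Arid1a KO (log2 3.85, SE 0.56, edgeR adjusted p = 0.0011).

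Against Arid1a KO, mitosis genes were higher in 11 of 32 cases in place of 23, and none was called without either Arid1a KO library or without DKO replicate 2. Of the p53 targets 2 were higher in place of 12, and of the NRF2 targets 7 in place of 15, with 2 and 1 left without Arid1a KO replicate 1 and 2. Collagens (15 against either control), matrix genes (27 in place of 33) and cytoskeletal genes (23 in place of 25) differed less. Their numbers against Arid1a KO were 9, 10 and 11 without Arid1a KO replicate 1, 7, 9 and 13 with its replicate 2 left out, and 9, 13 and 17 without DKO replicate 1. Whether DKO differed more from WT than from Arid1a KO in these lists was not tested. The recruited macrophage markers were higher in 7 of 14 cases and in none without either Arid1a KO library or DKO replicate 1. Sinusoidal endothelial markers were higher in 8 of 16 cases in place of 2 against WT, and in none without the same libraries.

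Other settings moved the list counts as follows. Tested against a 2-fold change, no mitosis or respiratory chain gene was called, and the numbers lower were 8 for complement, 6 for coagulation, 6 for plasma carriers, 12 for conjugating enzymes, 12 for transporters, 16 for amino acid breakdown, 2 for hepatocyte factors and 3 for fatty acid oxidation. The numbers higher were then 18 for matrix, 10 for cytoskeleton, 8 for YAP, 7 for NRF2, 3 for interferon, 3 for p53 and 5 for stress response genes. Scaled by total counts alone, 5 respiratory chain genes were lower, and 26 interferon, 18 ribosome biogenesis, 19 lysosome and 11 S-phase genes were higher. With the 30-day WT livers as controls, 32 mitosis, 24 S-phase, 26 interferon, 18 p53, 16 ribosome biogenesis, 13 NF-kB, 12 AP-1, 11 chemokine and 10 apoptosis genes were higher. Among the lists described here, counts of 3 or fewer genes called against WT moved by at most 2 genes with a library left out, apart from the lower Wnt feedback genes. With only the 4 libraries in the fit, 9 mitosis genes were higher and 15 respiratory chain genes lower. Where a list described above had no gene called in a direction against WT, at most 2 of its genes (3 for the T and NK markers) passed an unadjusted p under 0.05 in edgeR in that direction, and DESeq2 called 1 higher gene of the growth hormone axis and no other.

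The 2 DKO livers were not equal. Among 1820 called higher genes with a mean of at least 2 CPM, the DKO livers differed by more than 2-fold in 17.5% and the WT livers in 6.04%. Among 2037 called lower genes the shares were 9.48% and 6.09%. DKO replicate 1 was the higher of the pair in 59.7% of the former and 50.9% of the latter. Epdr1, an ependymin-related secreted protein, was the most uneven of the genes described here, at 0.557 and 0.315 CPM in WT against 64 and 3.89 CPM in DKO (log2 6.36, SE 1.27, edgeR adjusted p = 0.00527). Cidec, in contrast, was higher in DKO replicate 2. The size of these gains is thus known less well than their direction.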

How the data were processed

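Reads were trimmed with fastp, aligned with STAR 2.7.3 and counted per gene with featureCounts on GRCm38.p6, per the submitters' processing notes. The sources used here do not state the annotation release or whether counting used strand. The values used are raw read counts per gene as deposited by the authors. Without a known strand setting, reads of overlapping or antisense genes cannot be told apart, and near-identical genes can share reads.

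The 14 liver libraries were fitted together with edgeR 4.0.16 in R 4.3.3 (filterByExpr, TMM, quasi-likelihood F test, 7 groups, 7 residual degrees of freedom). The square root of the common dispersion was 29.3%. Tested on simulated data for DKO against WT with 17831 genes, the fit called 16.7% of genes changed 2-fold and 80.7% of those changed 4-fold, and 17 of 441 calls were false. DESeq2 1.42.0 was an alternative. Figures used matplotlib 3.10.9. Gene positions come from GENCODE M21 and promoters from RefSeq.

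Named genes were the called genes of largest fold change (mean of at least 2 CPM, no overlap between groups), those of largest CPM difference, those at 0 counts in a group, those most unequal between the DKO livers, and per list up to 4 called genes of smallest p in each direction and 2 of highest level not called. Predicted genes were left out. The comparison, the lists and their members were chosen with earlier results of these data known. Alternatives were other scalings, no low-count filter, DESeq2, other sets of libraries, a replicate block, a test against a 2-fold change, the 30-day WT livers as controls, and each library left out. With a library left out, its partner is assumed to vary as the libraries of other groups do.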

Additional observations from a re-analysis of the deposited data

Results flagged for a closer look

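For 3 genes both livers labelled Arid1a KO lay on one side of the WT livers and both DKO livers on the other, and the difference between DKO and Arid1a KO passed the test. Acot2, the mitochondrial acyl-CoA thioesterase, stood at 3.37 and 3.69 CPM in Arid1a KO, at 9.78 and 9.19 CPM in WT and at 127 and 159 CPM in DKO, and DKO exceeded Arid1a KO by a log2 of 5.34 (SE 0.36, edgeR adjusted p = 1.69e-05). Syt1, a calcium sensor of synaptic vesicles, stood at 24.5 and 24.9 CPM in Arid1a KO, at 10.7 and 12.6 CPM in WT and at 4.25 and 2.02 CPM in DKO (log2 -2.99 between DKO and Arid1a KO, SE 0.36, edgeR adjusted p = 3.45e-04). Alas2, which starts haem synthesis in erythroid cells, stood at 41.6 and 53.7 CPM in Arid1a KO, at 31.7 and 15.5 CPM in WT and at 5.42 and 8.34 CPM in DKO (log2 -2.79 between DKO and Arid1a KO, SE 0.34, edgeR adjusted p = 3.59e-04). In Arid1a KO against WT none of these genes passed (edgeR adjusted p = 0.0941, 0.233 and 0.239).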

How the results depend on the processing

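In the simulated data, 16.7% of genes changed 2-fold were called. Those data gave 441 calls over 3 draws, and the real comparison gave 4710. The adjusted threshold therefore differed, and the simulated share need not hold for the real comparison. The draws changed as many genes up as down and left the rest at WT levels. Their false calls therefore do not measure an error of scaling. The counts of genes higher and lower in DKO than in WT, 2246 and 2464, were 4890 and 1518 under total-count scaling, 484 and 825 against a 2-fold change, and 3782 higher with the WT livers of both times as controls. Against Arid1a KO the counts of 1769 and 2159 were 4811 and 1285 under total-count scaling and 327 and 692 against a 2-fold change. Leaving out a library gave 558 to 1612 higher and 1297 to 1770 lower genes against WT, and 421 to 1260 higher and 1197 to 1490 lower genes against Arid1a KO. Total-count scaling sets library totals equal, while TMM sets the bulk of genes equal, so the 2 differ by construction. Which is nearer to the RNA per cell was not tested. The cause of the other moves was not tested either. RLE and upper-quartile scaling, no filter, DESeq2, the fit of only the libraries compared and that of all 16 stayed within 1.5 times. Gbp3, not called, had a log2 of -0.20 without WT replicate 1 and of 0.55 without WT replicate 2. The test against a 2-fold change ended the call of 19 of the 166 genes named. Kng1 and Igfbp2 were called higher by DESeq2 and, with Arid1a, Smarca4, Yap1, Fn1 and Actb, under total-count scaling.

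Replicate numbers are shared by the groups, and the labels do not say what a number marks. The correlation of deviations between same-numbered livers was -0.01 for DKO and WT, 0.06 for DKO and Arid1a KO, and 0.17 for WT and Arid1a KO. Replicate 1 had the smaller total count in each of the 7 liver groups. With the replicate block 2491 genes were higher and 2853 lower than WT, and 2003 and 2507 than Arid1a KO.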

Other observations

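Some of the called genes were neighbours. Runs of at least 4 adjacent coding genes that were all called in the same direction were counted among 14119 coding genes with a position, and the runs named here were chosen after their values were seen. There were 34 runs of lower genes holding 163 of the 1951 lower coding genes, the longest of 11, and 16 runs of higher genes holding 70 of the 2094 higher ones, the longest of 6. The longest was the Cyp2c cluster of drug-metabolising enzymes from Cyp2c29 to Cyp2c70 (GRCm38 chr19:39269405-40187333), with a median log2 of -4.44. Its genes are close copies that can share reads, and so are the Ces2, Ces3 and Ces4 carboxylesterases at chr8:104926260-105150109 (6 genes, median log2 -3.04). The run Mtnr1a, F11, Klkb1, Cyp4v3 and Fam149a at chr8:45069137-45382291 holds mostly unrelated genes (median log2 -3.61), from a melatonin receptor to a P450. Abca2, Paxx, Clic3, Ptgds, Lcn12 and C8g at chr2:25428703-25501719 (median log2 -3.86) is another such run, with a lipid transporter, a DNA repair factor, a chloride channel protein, 2 lipocalins and a complement chain. Among the higher runs, 6 interferon-induced Ifit genes at chr19:34550694-34650009 had a median log2 of 2.26. How often such runs arise from the order of liver genes along the chromosomes was not tested.

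Transcripts of long noncoding RNA were called lower more often than higher. Of 705 antisense genes 126 (17.9%) were lower and 19 (2.70%) higher in DKO than in WT. Of 561 lincRNA genes 106 (18.9%) were lower and 39 (6.95%) higher. For the 14119 protein-coding genes the shares were 13.8% lower and 14.8% higher. Since the strand setting is not known, counts of an antisense gene can hold reads of its sense partner.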
